A study of Mus musculus with 12 samples.

Results

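The 10 genes described here, Spon2, Tinagl1, Slc26a1, Cd248, Tmem246, Ephx2, Prss50, Ptpn14, Atp4a and Gpc4, were chosen by their deep falls of expression in Double hematopoietic stem and progenitor cells (HSPCs) relative to WT, and make up 10 of 24016 genes in the deposited tables. All 10 were found by symbol in each of the 3 tables, and the transcript with the highest mean stands for genes with several (2 for Tinagl1, 4 for Ephx2, 2 for Atp4a). RNA-seq was made from lineage-depleted HSPCs of C57BL/6 mice in 12 libraries, 3 each of the genotype groups Double, Npm1, Smc3 and WT. Npm1 encodes a chaperone of the nucleolus, a frequent target of mutation in acute myeloid leukaemia, Smc3 is a subunit of the chromosome ring complex cohesin, and Double is read here as carrying both lesions, from the study's title. All mice, WT included, were given 7 intraperitoneal doses of pIpC at 1 mg/mL, 1 every other day from an age of 4 to 6 weeks, and cells were taken 4 to 6 weeks later. The labels name no allele, no Cre driver and no sex, and leave unstated if each library is its own mouse, so errors measure only the spread between these libraries.

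The genes share no single pathway. Spon2 (spondin 2) and Tinagl1 are secreted proteins of the extracellular matrix, Cd248 (endosialin) is a membrane protein of pericytes and fibroblasts with a C-type lectin domain, and Gpc4 (glypican 4) is a heparan sulfate proteoglycan held on the cell surface by a glycosylphosphatidylinositol (GPI) anchor. Slc26a1 exchanges sulfate and oxalate across membranes, and Atp4a is the catalytic subunit of the proton pump of the stomach. Tmem246, now called Pgap4, adds a sugar to GPI anchors in the Golgi, Ephx2 is the soluble epoxide hydrolase that turns epoxy fatty acids into diols, Prss50 is a serine protease known from testis, and Ptpn14 is a tyrosine phosphatase with a FERM domain that binds the growth regulator YAP. Cohesin shapes loops between genes and their enhancers, and mutant Npm1 is known for leaving the nucleolus and for high Hox gene expression in leukaemia.

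Start-site sequence is shown for Tinagl1 and Gpc4, which differed between Npm1 and Smc3 in opposite directions, as given below. Each window holds 250 bases before and 50 after a RefSeq gene start on build GRCm38.p6, minus strand, printed 5′ to 3′, and capitals mark the matches to the motifs searched. The first Tinagl1 window lies at chr4:130175073-130175372, the second at chr4:130174753-130175052, and the Gpc4 window at chrX:52164874-52165173.
Tinagl1, first start: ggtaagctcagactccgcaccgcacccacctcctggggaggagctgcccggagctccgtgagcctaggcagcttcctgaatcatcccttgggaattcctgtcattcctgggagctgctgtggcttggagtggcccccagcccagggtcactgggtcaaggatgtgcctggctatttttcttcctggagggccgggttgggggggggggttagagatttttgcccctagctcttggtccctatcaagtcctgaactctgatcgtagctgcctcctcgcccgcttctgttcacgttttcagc
Tinagl1, second start: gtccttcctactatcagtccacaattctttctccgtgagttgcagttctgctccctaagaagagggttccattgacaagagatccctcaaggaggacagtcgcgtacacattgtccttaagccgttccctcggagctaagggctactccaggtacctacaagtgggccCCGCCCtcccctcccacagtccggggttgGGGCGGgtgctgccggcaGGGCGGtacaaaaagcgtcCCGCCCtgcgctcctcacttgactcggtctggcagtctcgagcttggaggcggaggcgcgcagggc
Gpc4: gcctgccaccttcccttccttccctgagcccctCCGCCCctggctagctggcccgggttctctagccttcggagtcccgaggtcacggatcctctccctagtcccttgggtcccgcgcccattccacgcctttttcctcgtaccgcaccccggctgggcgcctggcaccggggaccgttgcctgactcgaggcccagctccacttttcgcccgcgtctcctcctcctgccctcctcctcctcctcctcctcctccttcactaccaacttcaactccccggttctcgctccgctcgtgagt
On both strands the search covered TATAAA of the TATA box, CACGTG of the E-box, AGATAA for GATA factors, GAGGAAGT for the factor PU.1, TGATTTAT and TGATTGAT for Hox proteins with Meis or Pbx, the GC box GGGCGG and TGACGTCA of the cyclic AMP response, and matches to different motifs could overlap. The second Tinagl1 window held 4 matches to GGGCGG and the Gpc4 window 1, while the first Tinagl1 window held none of the motifs. Of all 32817 promoter windows, 35.6% held GGGCGG, so a match is common. Of the 10 genes, 7 had windows in this table, 11 in all. These 11 held 1 to 40 CG dinucleotides with a median of 18, against a median of 7 over all windows. Slc26a1 had 1 window with TATAAA and CACGTG and another with AGATAA, and Tmem246 had 1 window with TATAAA. The Ptpn14 window held 3 matches to the GC box, which also stood in both Tmem246 windows, with 2 and 1, while the windows of Atp4a and Prss50 held none of the motifs. Of all windows, 13.6% held TATAAA, 7.15% held CACGTG and 11.2% held AGATAA. Neither TGATTTAT nor TGATTGAT was in any of the 11 windows, and they stood in 0.978% and 0.747% of all windows.

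The authors deposited fitted comparisons with WT and no value per library, so each log2 fold change below stands with the standard error (SE) of the authors' DESeq2 fit of 3 against 3 libraries. Depth, estimated from transcripts with 1 read, was 27.8 to 35.4 M reads per Double library, 10.6 to 33.1 M for Npm1, 19.8 to 51.6 M for Smc3 and 10.2 to 22.04 M for WT. Summed means of 4 Y-linked genes were 2280 normalized counts in the Double and WT libraries, 3.80 in the Npm1 and WT libraries and 2022 in the Smc3 and WT libraries. Reads from the Y chromosome were thus present in Double and Smc3 and nearly absent in Npm1 and WT. Xist, the RNA of the inactive X in females, had means of 27609 over Double and WT, 38789 over Npm1 and WT and 26191 over Smc3 and WT on the scale of the Double table, so Double and Smc3 may hold libraries of both sexes. The tables do not give the number of each, and without values per library sex and genotype cannot be told apart in comparisons with Double or Smc3. Depth differed too. The 4 Y-linked genes had log2 fold changes of only 0.06 to 0.08 in Double in the authors' deposited table, so a moderated value near 0 does not show equal levels. The Npm1 transcript stood at -0.06 ± 0.16 in Double and 0.22 ± 0.16 in Npm1, and the Smc3 transcript at -0.03 ± 0.11 in Double and -0.02 ± 0.11 in Smc3, on the log2 scale in the authors' deposited table. None of these passed the threshold, and since the labels name no allele they check no label. Of HSPC markers, Kit had a mean of 7661 and Cd34 of 4061 normalized counts over Double and WT in the authors' deposited table, and all 12 listed stem and progenitor genes had an adjusted p there.

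In Double HSPCs the 10 genes stood at 12.1% to 35.3% of the WT level in the authors' deposited table. Spon2 was the deepest, with a log2 fold change of -3.04 ± 0.20 (SE), followed by Tinagl1 at -2.58 ± 0.22, Slc26a1 at -2.21 ± 0.19 and Cd248 at -2.12 ± 0.24 in the authors' deposited table. Tmem246 at -1.91 ± 0.22, Ephx2 at -1.86 ± 0.20, Prss50 at -1.80 ± 0.19 and Ptpn14 at -1.79 ± 0.19 lay close together in the authors' deposited table. Gpc4 at -1.66 ± 0.21 and Atp4a at -1.503 ± 0.24 were the least lowered of the 10 in the authors' deposited table. These values chose the genes and are a description only. In bulk RNA, fewer cells of a type and less RNA per cell cannot be told apart. Of 13217 genes with an adjusted p in Double, 9.82% were lower and 8.87% higher at an adjusted p under 0.05, and 0.719% (95 genes) were also lowered by a log2 fold change of at least 1. Ordered by fold change, the 10 genes were at ranks 1 to 4, 7, 8, 10, 11, 17 and 27 of those 95. The lowest genes passed over were 6030468B19Rik at -1.959, Rsad2, an antiviral enzyme, at -1.91 and Septin4 at -1.83, and on either side of Atp4a stood Tspan8 at -1.52 and Cyp1a1 at -1.502 in the authors' deposited table.

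**Figure D1:**
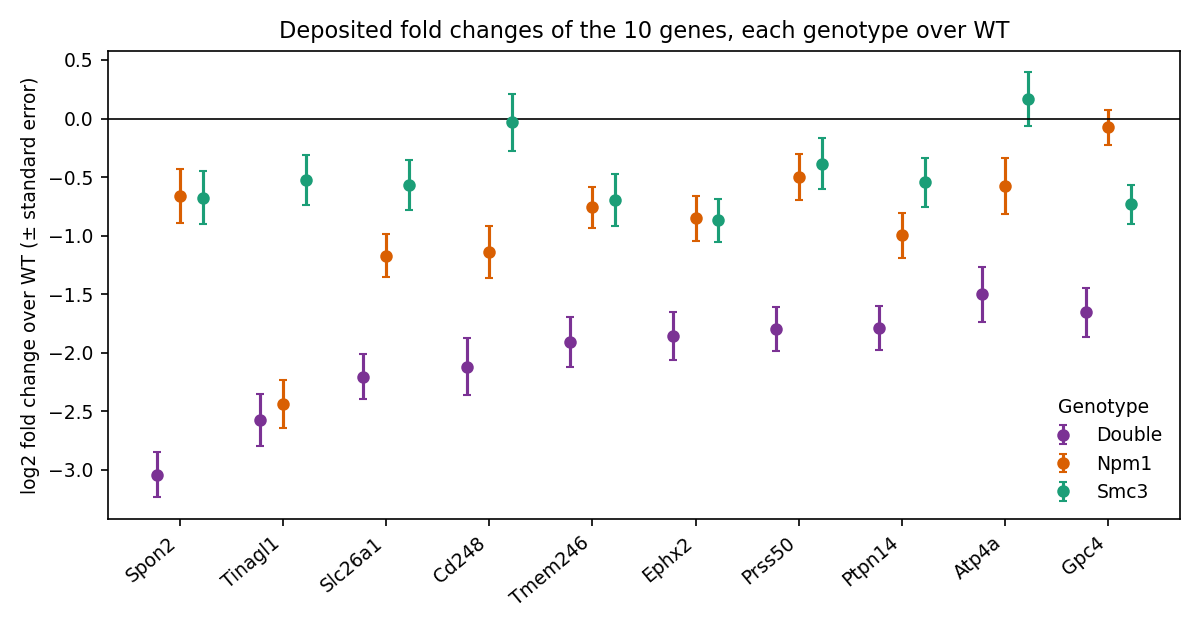
Log2 fold change over WT of the 10 genes (y axis) in Double, Npm1 and Smc3 HSPCs as deposited by the authors; points are estimates and bars are ± 1 standard error, 3 against 3 libraries. Double lies lowest for each gene, Tinagl1 in Npm1 (-2.44) comes close to its Double value (-2.58), and Gpc4 in Npm1 (-0.08) and Cd248 in Smc3 (-0.03) lie near WT.

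Against the same WT libraries, 7 of the 10 genes fell in Npm1 at the authors' adjusted p under 0.05, where 9% of all genes with an adjusted p did, 9.1% rose and 18.1% were called in either direction. In Smc3, 4 of the 10 fell, where 6.6% of all genes did and 7.94% rose. Both counts share the WT libraries with the comparison that chose the genes, so neither is independent of the choice. Ephx2, Tmem246 and Spon2 fell in both single lesions, against 0.846% of all genes, and Tinagl1, Slc26a1, Cd248 and Ptpn14 passed the threshold in Npm1 alone. Gpc4 passed it in Smc3 alone, and Prss50 and Atp4a passed it in neither. A call in 1 group and not the other does not show that the groups differ, which the direct test of Npm1 against Smc3 addresses. Double takes no part in that difference, and the same WT libraries enter both fold changes. They need not cancel in full, because each comparison was moderated on its own. For Spon2 the implied WT level was 417 normalized counts from the Npm1 comparison and 494 from the Smc3 one, on 1 scale.

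By that test (a z test of the difference of the deposited log2 fold changes, Benjamini-Hochberg adjusted over 18282 genes) 3 of the 10 genes differed between Npm1 and Smc3, 2 lower and 1 higher in Npm1. Over all genes, 13.9% differed, 7.57% lower and 6.36% higher in Npm1. The 10 genes all have an adjusted p in Double, and of 13201 such genes in the test 1380 were lower and 1160 higher. Tinagl1, the matrix protein, was lower in Npm1 than in Smc3 by a log2 difference of -1.92 ± 0.30 (SE, adjusted p = 9.07e-08), and Cd248 by -1.11 ± 0.33 (adjusted p = 0.0114). Gpc4 was higher in Npm1, by 0.66 ± 0.22 (adjusted p = 0.0298), a call that was lost when the median fold change of each table was set to 0 (adjusted p = 0.0526). Cd248 was not tested where a mean of at least 50 was asked for, since its Npm1 mean was 46.5 normalized counts. The variance of this test counts the WT libraries in full although they drop out at least in part. With the WT share of it removed, Slc26a1 (-0.60, adjusted p = 0.0119) and Atp4a (-0.74, adjusted p = 0.00706) were also lower in Npm1, and the call rate over all genes rose with it.

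**Figure D2:**
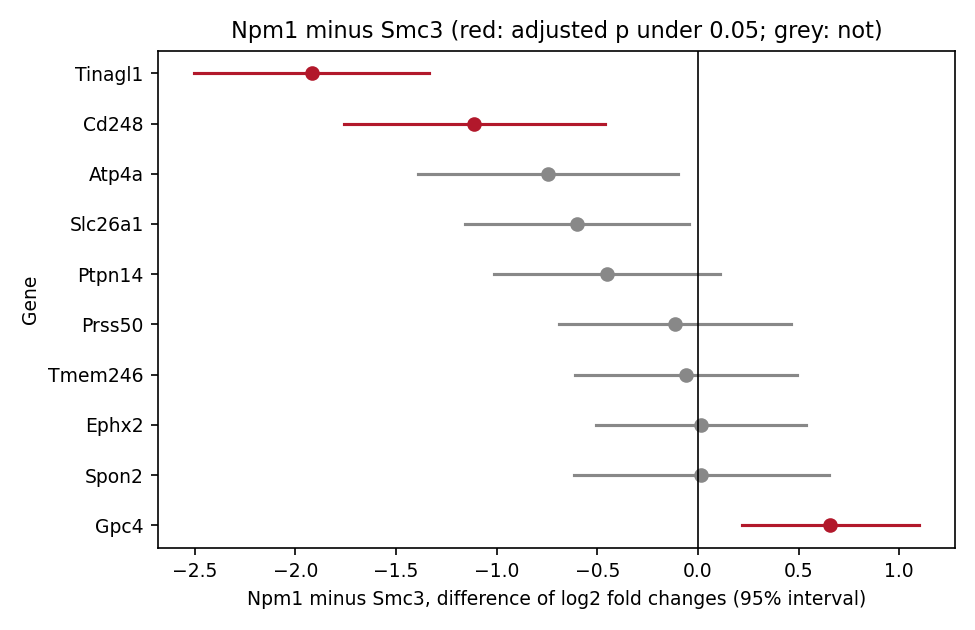
Difference of log2 fold changes, Npm1 minus Smc3 (x axis), for each of the 10 genes (y axis); points are differences, lines are 95% intervals, red marks an adjusted p under 0.05 and grey one above it. Tinagl1 (-1.92) and Cd248 (-1.11) lie left of 0, Gpc4 (0.66) lies right of it, and the intervals of Spon2, Ephx2, Tmem246, Prss50 and Ptpn14 include 0.

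The other 7 genes could not be assigned to 1 lesion by the test. Slc26a1 differed by -0.60 (95% interval -1.16 to -0.05, adjusted p = 0.15 by the z test) and Atp4a by -0.74 (-1.39 to -0.10, adjusted p = 0.119), both toward a lower level in Npm1. Ptpn14 differed by -0.45 (-1.01 to 0.11) and Prss50 by -0.11 (-0.69 to 0.46). Tmem246 differed by -0.06 (-0.61 to 0.49), Ephx2 by 0.02 (-0.51 to 0.54) and Spon2 by 0.02 (-0.62 to 0.65). These intervals are wide beside the single fold changes of the same genes, so equal effects of both lesions are not shown.

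Among the matrix and surface genes, Tinagl1 fell to -2.44 ± 0.21 in Npm1 (adjusted p = 1.32e-28), rank 1 from the lowest among called genes of that comparison in the authors' deposited values. In Smc3 it stood at -0.52 ± 0.21 (adjusted p = 0.0776), and its Double value lay only 0.14 below the Npm1 one, less than the SE of that difference (0.30). Cd248 fell to -1.14 ± 0.22 in Npm1 (adjusted p = 2.77e-05) and stood at -0.03 ± 0.25 in Smc3 (adjusted p = 0.947) in the authors' deposited table. Pdgfrb, another pericyte marker, also was lower in Npm1 than in Smc3, by a log2 difference of -0.96 (adjusted p = 0.00375, z test). Unlike Cd248, Pdgfrb stood at -0.18 in Npm1, 0.78 in Smc3 and 0.77 in Double. The stromal markers Col1a1 and Col1a2 differed by -0.10 and -0.11 (adjusted p = 0.965 and 0.968, z test), among the smallest differences of their list. All 14 stromal and pericyte markers listed had a negative difference, from -0.10 to -0.96, and only Pdgfrb passed the threshold. The part of stromal cells in the difference of Cd248 was not tested. Gpc4 showed the reverse order, at -0.08 ± 0.15 in Npm1 (adjusted p = 0.759) and with a fall to -0.73 ± 0.17 in Smc3 (adjusted p = 0.000589) in the authors' deposited table. Gpc4 lies on the X chromosome, and the part of sex in its values was not tested. Spon2 fell to -0.66 ± 0.23 in Npm1 (adjusted p = 0.0306) and to -0.68 ± 0.23 in Smc3 (adjusted p = 0.0276) in the authors' deposited table, each far above its Double value of -3.04.

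Among the transporters, Slc26a1 fell to -1.17 ± 0.19 in Npm1 (adjusted p = 7.23e-08) and stood at -0.57 ± 0.21 in Smc3 (adjusted p = 0.052) in the authors' deposited table. Atp4a stood at -0.58 ± 0.24 in Npm1 (adjusted p = 0.0677) and at 0.17 ± 0.23 in Smc3 (adjusted p = 0.67), the only positive fold change of the 10 genes in either single lesion, in the authors' deposited table. Slc26a1 overlaps Idua, a lysosomal enzyme gene, and the library kit keeps no strand, so reads from their overlap cannot be told apart. Idua rose in each comparison, by 0.52 ± 0.11 in Double, 0.34 ± 0.11 in Npm1 and 0.42 ± 0.12 in Smc3 in the authors' deposited table, the opposite direction to Slc26a1. Of the enzymes, Ephx2 fell by almost the same amount in both single lesions, to -0.85 ± 0.19 in Npm1 (adjusted p = 0.000483) and -0.87 ± 0.18 in Smc3 (adjusted p = 0.000211), in the authors' deposited table. Tmem246 fell to -0.76 ± 0.17 in Npm1 (adjusted p = 0.000571) and -0.70 ± 0.22 in Smc3 (adjusted p = 0.0185) in the authors' deposited table. Ptpn14 fell to -0.998 ± 0.19 in Npm1 (adjusted p = 2.04e-05) and stood at -0.55 ± 0.21 in Smc3 (adjusted p = 0.0599) in the authors' deposited table. By the authors' deposited table, Prss50 stood at -0.50 ± 0.20 in Npm1 (adjusted p = 0.0556) and -0.39 ± 0.22 in Smc3 (adjusted p = 0.218). The kept transcript and the next of Ephx2 differed by less than 0.1 in each comparison, as did those of Tinagl1, and both transcripts of Atp4a carry the same values.

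Set against the single lesions, Double lay lower than both for each of the 10 genes, as a gene picked for a deep Double fall is prone to. The difference Double minus Npm1 ran from -2.38 ± 0.30 for Spon2 to -0.14 ± 0.30 for Tinagl1. Double minus Smc3 ran from -2.37 ± 0.30 for Spon2 to -0.92 ± 0.27 for Gpc4. Double minus the sum of both single fold changes was -1.71 ± 0.38 for Spon2, 0.38 ± 0.37 for Tinagl1 and -0.14 ± 0.34 for Ephx2. It was -1.09 ± 0.41 for Atp4a, -0.94 ± 0.41 for Cd248, -0.91 ± 0.35 for Prss50 and -0.85 ± 0.31 for Gpc4. Only Tinagl1 had a value above 0. From the group levels described next, Double over the product of the single levels was -0.62 for Spon2, 0.40 for Tinagl1 and -0.21 for Ephx2 on the log2 scale. The size for Spon2 thus depends on which values are used. By these levels Atp4a (-1.33), Cd248 (-1.17), Gpc4 (-1.15) and Prss50 (-0.95) lay further below the product than Spon2 did. No test is given for these differences, because the Double values chose the genes.

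The deposited means give a second view, since a mean over 3 genotype and 3 WT libraries, doubled, is the sum of both group levels. The WT libraries put the tables on 1 scale, with the Npm1 table multiplied by 1.30 and the Smc3 table by 1.03 to reach the scale of the Double table. For 712 well measured genes, the WT level implied by the Npm1 table differed from that of the Double table by a median of 0.0016 on the log2 scale, and that of the Smc3 table by -0.00022. With the WT level taken from the Double table, Tinagl1 had 33.7 normalized counts in Double, 35.3 in Npm1 and 146 in Smc3, against 202 in WT. Cd248 had 19.3 in Double, 37.4 in Npm1 and 97.2 in Smc3, against 83.7 in WT normalized counts. The Smc3 table implied 91.4 in WT for Cd248, so a level above WT in Smc3 is not shown. Gpc4 ran the other way, with 156 normalized counts in Double, 528 in Npm1 and 322 in Smc3, against 491 in WT. By these levels Tinagl1 was about as low in Npm1 as in Double, and Gpc4 in Npm1 was near its WT level. The levels carry no error, because the tables hold no values per library. They also rest on a Double fold change moderated toward 0. For a lowered gene the WT level may thus be too low, and the levels beside it too high.

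Spon2 is the gene for which the means and the deposited fold changes differed most. It had 62.2 normalized counts in Double, 168 in Npm1 and 291 in Smc3, against 513 in WT, which places Npm1 at 32.8% and Smc3 at 56.8% of WT. The deposited fold change of Npm1 corresponds to 63.3% of WT and implies a WT level of 417 normalized counts, although the WT libraries are the same. Its SE of 0.23 was close to 0.238, the largest in that table. By the means Spon2 was lower in Npm1 than in Smc3 (a difference of -123 normalized counts), or -0.79 on the log2 scale, where the difference of fold changes was 0.02. The WT levels implied by the 3 tables lay within 0.55% to 3.63% of each other for Tinagl1, Slc26a1, Tmem246, Ephx2, Prss50 and Ptpn14. They lay within 6.10% for Gpc4, 8.88% for Cd248, 12.8% for Atp4a and 18.7% for Spon2. Atp4a had 42.7 normalized counts in Double, 77.4 in Npm1 and 168 in Smc3, against 121 in WT, with -1.12 for Npm1 over Smc3 on the log2 scale in place of -0.74.

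**Figure D3:**
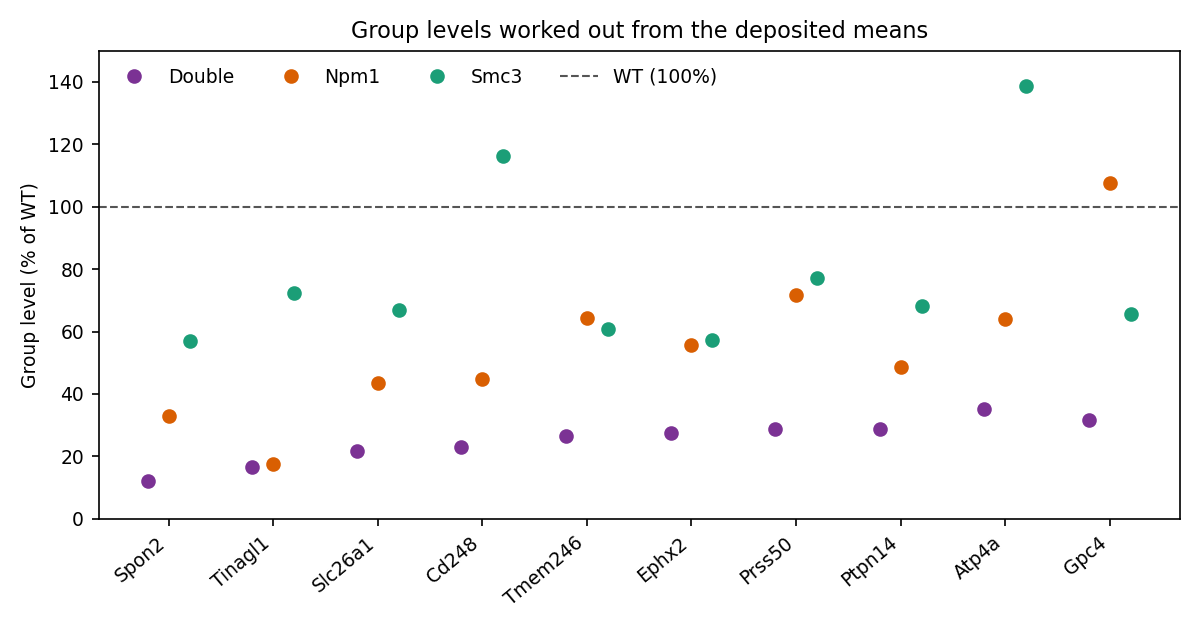
Group level as a percentage of WT (y axis) for the 10 genes in Double, Npm1 and Smc3, worked out from the deposited means with WT (dashed line, 100%) taken from the Double table; no error can be given. Spon2 lies at 12.1% in Double, 32.8% in Npm1 and 56.8% in Smc3. Atp4a and Cd248 lie below WT in Npm1 and above it in Smc3. Their deposited fold changes in Smc3 correspond to 112% of WT for Atp4a and 97.7% for Cd248. The place of Cd248 above WT thus depends on the WT level used. Atp4a lay above WT by both, but by an amount that differed, and its deposited fold change did not pass the threshold.

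Slc26a1 had 143 normalized counts in Double, 287 in Npm1 and 440 in Smc3, against 659 in WT. Ptpn14 had 192 in Double, 322 in Npm1 and 452 in Smc3, against 662 in WT normalized counts. For Ephx2 (160 in Npm1 and 164 in Smc3), Tmem246 (115 and 109) and Prss50 (579 and 621 normalized counts) the single lesions lay close together. The product of the single levels, each as a share of WT, was 18.7% for Spon2 beside 12.1% in Double, and 31.9% for Ephx2 beside 27.6% in Double. It was 55.4% for Prss50 beside 28.7% in Double and 12.7% for Tinagl1 beside 16.7% in Double.

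The other 85 genes lowered in Double by a log2 fold change of at least 1 place the 10 genes among their peers. Their median was -0.59 in Npm1 and -0.56 in Smc3, against -0.81 and -0.56 for the 10 genes, and 0.00 and -0.00 over all genes with an adjusted p in Double. Of these 85, 29 fell in both single lesions, 23 in Npm1 alone and 15 in Smc3 alone, by the authors' threshold. Among all 13217 genes with an adjusted p in Double, the same counts were 104, 817 and 657. The 85 genes too were chosen by Double against the same WT libraries, so their counts are not independent of that choice. Npm1 minus Smc3 was called lower in Npm1 for 9 of the 85 and higher for 1, where 7.57% and 6.36% of all 18282 genes were. The 85 all have an adjusted p in Double, and of 13201 such genes in the test 1380 were lower and 1160 higher. The 1 higher was the FERM-domain phosphatase Ptpn13 (1.04, adjusted p = 0.00312 by the z test), a relative of Ptpn14. The genes closest to the median of the 10 over the 3 fold changes were Septin4 (distance 0.08), Nags (0.25), Fhdc1 (0.35), Plvap, an endothelial membrane protein (0.37), and Abcb9 (0.38). Septin4 stood at -1.83 in Double, -0.80 in Npm1 and -0.50 in Smc3 in the authors' deposited table.

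**Figure D4:**
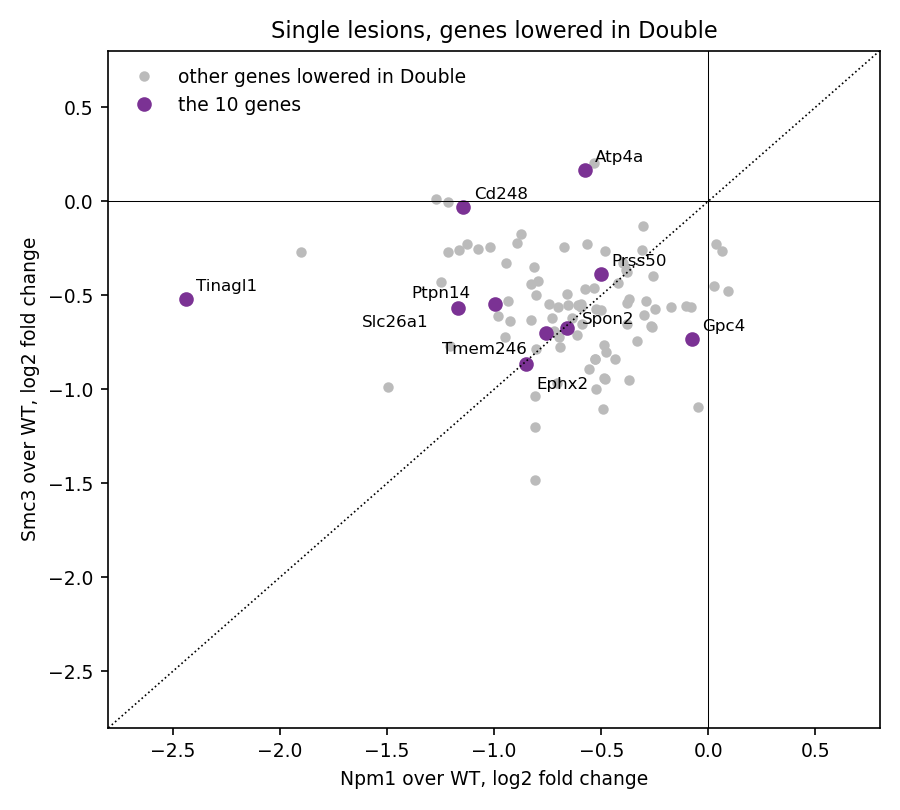
Log2 fold change over WT in Npm1 (x axis) against that in Smc3 (y axis) for the 95 genes lowered in Double by a log2 fold change of at least 1; purple points are the 10 genes, grey points the other 85, and the dotted line marks equal values. Tinagl1 (-2.44 in Npm1) lies apart from the rest, while Ephx2, Tmem246 and Spon2 lie on the line.

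Relatives of the 10 genes were taken from lists of their families. The counts here and in the paragraphs below stand beside shares over all genes with an adjusted p. In Double 9.82% of those fell and 8.87% rose, in Npm1 9% and 9.1%, and in Smc3 6.6% and 7.94%. A count of 1 in a short list can lie near these shares and is a description only. Among other glypicans and syndecans, 1 of 7 measured fell in Double, 3 of 7 in Npm1, and 1 of 7 rose in Smc3, by the authors' threshold. Gpc3, the neighbour of Gpc4 on the X chromosome, fell to -1.11 ± 0.23 in Npm1 (adjusted p = 8.56e-05) and stood at 0.06 ± 0.21 in Smc3 in the authors' deposited table, the reverse of Gpc4. Sdc2 and Sdc3, cell surface proteoglycans, also fell in Npm1, to -0.93 and -0.78 in the authors' deposited table. Both measured lectin relatives of Cd248 rose in Double. By the authors' deposited table Cd93 stood at 0.60 ± 0.15 (adjusted p = 0.00138) and thrombomodulin (Thbd) at 0.82 ± 0.21 (adjusted p = 0.00105). Of the FERM phosphatases and Hippo genes, 1 rose and 3 fell of 13 measured in Double, with Ptpn13 at -1.31 ± 0.22 and Ptpn3 at -0.71 ± 0.13 in the authors' deposited table. Ptpn13 fell to -1.09 ± 0.19 in Smc3 and stood at -0.05 ± 0.20 in Npm1, whereas Ptpn3 fell to -0.59 ± 0.14 in Npm1 and stood at -0.27 ± 0.17 in Smc3, in the authors' deposited table.

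Of the epoxide and epoxy fatty acid genes other than Ephx2, 4 of 11 measured rose in Double and 6 of 11 in Smc3, while 2 fell and 1 rose in Npm1, by the authors' threshold. Alox15, a lipoxygenase, stood at 0.04 ± 0.23 in Double, fell to -0.90 ± 0.23 in Npm1 and rose by 1.38 ± 0.22 in Smc3 in the authors' deposited table. Of 14 measured GPI anchor genes, 2 rose and 3 fell in Double, with Pgap3 lower at -0.49 ± 0.16 in the authors' deposited table. Of 17 measured genes of sulfate activation and glycan sulfation, 3 rose and 2 fell in Double, with Papss2, which makes the sulfate donor, at 0.64 ± 0.17 and the sulfotransferase Hs6st1 at -0.52 ± 0.15 in the authors' deposited table. Slc26a2, a sulfate transporter, rose in Npm1 by 0.37 ± 0.11 and stood at 0.18 ± 0.11 in Double in the authors' deposited table. Of 6 measured sodium and proton pump genes, 1 rose in Double (Fxyd5, 0.43 ± 0.16), and Atp4b, the partner subunit of Atp4a, had no adjusted p and a mean of 7.31 normalized counts over Double and WT, in the authors' deposited table. Of the measured Prss genes, 1 of 4 rose in Double, and of the Tinagl1 relatives 3 of 7 rose, Ctsc at 0.88 ± 0.14 in the authors' deposited table. Of 4 measured spondin and thrombospondin genes 1 rose in Smc3, Thsd1 at 0.70 ± 0.22 (adjusted p = 0.0154), while in Double it stood at 0.26 ± 0.25 in the authors' deposited table.

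Some markers of other cell types moved too, and the shares over all genes given above apply to these counts as well. All 7 erythroid markers fell in Double, with a median log2 fold change of -0.999, 3 of 7 fell in Npm1 (median -0.33) and 6 of 7 in Smc3 (median -0.69), by the authors' threshold. Summed means of the erythroid markers, on the scale of the Double table, were 23739 normalized counts over Double and WT libraries, 29292 over Npm1 and WT, and 25252 over Smc3 and WT. Their part in the falls of the 10 genes was not tested. Of stromal and pericyte markers, a class to which Cd248 belongs, 1 of 10 measured rose in Double, Pdgfrb at 0.77 ± 0.17 (adjusted p = 0.000118), which stood at -0.18 in Npm1 and 0.78 in Smc3, and Col1a1 stood at -0.12 and Col1a2 at 0.01 in the authors' deposited table. Summed means of the stromal markers, on the scale of the Double table, were 4781 normalized counts over Double and WT, 4550 over Npm1 and WT, and 5701 over Smc3 and WT. Of endothelial markers 1 rose and 1 fell of 10 in Double, Flt1 at 0.99 ± 0.25 and Eng at -0.69 ± 0.11 in the authors' deposited table. Epithelial markers fell in Npm1 for 2 of 3 measured, Krt18 and Cdh1 at -0.66 and -0.67 in the authors' deposited table, and Krt5 is listed at 0 in each table. Of stem and progenitor markers 3 of 12 rose in Double, of megakaryocyte markers 1 of 6 and of T and NK cell markers 2 of 6, while 1 of 5 measured B cell markers fell, by the authors' threshold. Of 7 mature neutrophil markers, 1 carried an adjusted p in Double (Cxcr2, -0.06 ± 0.24 in the authors' deposited table). The other 6, at means of 594 to 3855 normalized counts, had log2 fold changes of -0.68 to -0.52 in Double, -0.52 to -0.40 in Npm1 and -0.57 to -0.31 in Smc3 in the authors' deposited table. In Double these 6 carried neither a p nor an adjusted p, although their means are not low, and no reason is given. Their part in the falls of the 10 genes was not tested either.

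Genes next to the 10 on the chromosome were looked up in RefSeq. Of 21 overlapping or flanking protein-coding genes, 11 had an adjusted p in Double, 2 fell and 1 rose (Idua) by the authors' threshold. From the authors' deposited table, those that fell were Fgfrl1 beside Slc26a1, at -0.97 ± 0.15 (adjusted p = 6.46e-09), and Ctbp1 beside Spon2, at -0.51 ± 0.08 (adjusted p = 4.9e-08). Both also fell in Smc3, Fgfrl1 to -0.45 ± 0.17 and Ctbp1 to -0.36 ± 0.09, and stood at -0.26 ± 0.12 and -0.13 ± 0.07 in Npm1, where neither passed the threshold, in the authors' deposited table.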

How the data were processed

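The submitters' processing notes name STAR, DESeq2 and mouse build mm9. The read counter and the versions used by the authors were not given. Libraries were poly(A) selected and made with a kit that keeps no strand, per the labels' protocols. The authors deposited 3 tables of 33018 transcripts, each comparing 1 genotype with WT. Each table holds, per the file headers, a mean of counts divided by size factors (a signal, normalized within the table), a log2 fold change with its standard error, the Wald statistic (a score), and p-values with adjusted p-values. Fold changes are moderated toward 0, as seen for transcripts with few reads. No values per library were used, because the tables hold fitted comparisons.

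Each symbol is represented by its transcript of highest average mean (24016 genes, 4911 with several transcripts; 53 rows whose symbols a spreadsheet had turned into dates were named by accession). Npm1 minus Smc3 was tested by z (normal), with both squared standard errors added as its variance, and Benjamini-Hochberg adjusted (pandas 2.3.3, scipy 1.17.1). A run on simulated data drew normal values with the deposited standard errors and without moderation. It checks the code only and cannot show how the test behaves on moderated fold changes. Table scales and depth came from transcripts with 1 read (means under 0.6), and levels from doubled means. Genes named beside the 10 are up to 3 per list of relatives and cell markers past an adjusted p of 0.05, the 10 lowest in Double with a mean of at least 50 (leaving out symbols of the Gm and Rik kinds), the 5 most alike and flanking genes; Tspan8, Cyp1a1, 6030468B19Rik, Col1a1, Col1a2, Krt5, Atp4b and flanking genes were chosen after their values were seen. The 10 genes and all lists were chosen with earlier results of these data known. Sequences are from RefSeq, GRCm38.p6.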

Additional observations from a re-analysis of the deposited data

Results flagged for a closer look

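The effects of the Npm1 and Smc3 genotypes, each against WT, differed by the z test for 3 of the 10 genes. Tinagl1 differed by -1.92 (Npm1 minus Smc3, log2 scale), Cd248 by -1.11 and Gpc4 by 0.66.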

How the results depend on the processing

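Npm1 minus Smc3 was called lower in Npm1 for 1384 genes and higher for 1162. Taking the WT share out of the variance gave 2732 and 2895, at an adjusted p under 0.01 they became 773 and 459, and with the median fold change set to 0 the higher count became 740. Among the 10 genes, 2 lower and 1 higher became 4 lower with the WT share removed, 1 lower with a mean of at least 50, 1 lower and 0 higher at an adjusted p under 0.01 (z test, with 4 lower and 1 higher at an unadjusted p under 0.05), and 0 higher with the median set to 0. Some values changed sign: with the median set to 0, Spon2 was -0.0364 and Ephx2 -0.0367, and from the means Spon2 was -0.79, Tmem246 0.0812 and Ephx2 -0.0383. Tinagl1 kept its direction and its call under each alternative that tests it. At an adjusted p under 0.01, lower and higher counts against WT were 815 and 595 in Double, 508 and 424 in Npm1, and 302 and 491 in Smc3, where fewer genes pass by construction; with the median set to 0, 720 were higher in Npm1. Prss50 in Npm1 passed the threshold with the median set to 0 (-0.54, adjusted p = 0.0412). Asking for -0.8 in place of -1 gave 192 other lowered genes in place of 85. Other causes were not tested. No paired analysis was possible because values per library are not in the tables, and no replicate could be left out either. The levels from the means were added after the data were seen. Cd248 had the lowest means of the 10 genes and the widest SE in Double (0.245) and in Smc3 (0.245). In Npm1 its SE (0.223) was below that of Atp4a (0.236).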
